A study of Homo sapiens with 4 samples.

Results

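The genes described here are 48 genes of mitosis and chromosome segregation, namely regulators of the G2 to M transition and genes of the spindle, the kinetochore, chromosome structure and cytokinesis. They were chosen by gene symbol, and the kinesin motors other than CENPE were left out of the choice. All 48 were found by Ensembl identifier among the 20323 genes of the deposited table, and all 48 passed the filter on low counts that left 11810 genes for testing. RNA was measured by sequencing of oligo(dT)-selected mRNA in 4 libraries of NK-92, a human natural killer cell line that depends on interleukin 2. NK scramble cells (2 libraries) were transduced with a lentivirus carrying a scrambled short hairpin RNA, and NK shADAR1 cells (2 libraries) with a lentivirus carrying a hairpin against ADAR1, an enzyme that edits adenosine to inosine in double-stranded RNA. Both groups grew in the same RPMI medium with 100 IU/ml interleukin 2. The cells are a transduced bulk culture of 1 line, and the labels call the knockdown libraries shADAR1-1 and shADAR1-2. These numbers were read as replicates, because the submitters describe independent biological replicates for each group. The study also uses the same names for its hairpins, and it states that cells with hairpin shADAR1-2 were sequenced, with n = 2 per group. The p-values below measure only the spread between these 4 libraries.

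Cells enter mitosis when cyclin B binds the kinase CDK1, and the chromosomes are then compacted by condensin and untangled by topoisomerase II. Kinetochores built on each centromere attach the chromosomes to spindle microtubules, and the spindle checkpoint holds back the anaphase-promoting complex until all are attached. The complex then marks securin and cyclin B for destruction, the sister chromatids part, and the cell divides in its middle. Many of these genes are transcribed mostly late in the cell cycle, under the DREAM and MuvB complexes and FOXM1, through a promoter element called the cell cycle genes homology region (CHR) and through CCAAT boxes bound by NF-Y. Their mRNA is therefore often read as a measure of how many cells in a culture are dividing.

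The libraries held 37881704 to 39960491 estimated counts each. Log2 CPM, the log2 of counts scaled to a common depth by TMM, correlated at r = 0.981 between replicates in both groups and at r = 0.981 to 0.989 between libraries of different groups. Values by library are given throughout with replicate 1 first and replicate 2 second. The targeted gene ADAR was at 655 and 682 CPM in the NK scramble libraries and at 575 and 482 CPM in the NK shADAR1 libraries. Its log2 fold change was -0.34 (SE 0.20, adjusted p = 1.00 by Benjamini-Hochberg over edgeR's quasi-likelihood test), so both knockdown libraries lay below both controls without passing the test. All 12 NK cell markers reached 1 FPKM (fragments scaled to transcript length and sequencing depth) in every library. Of 8 T cell markers 4 did (CD3E, TRAC, TRBC1 and TRBC2), with CD8A listed at 0 throughout and a summed level of 709.5 and 878.1 FPKM in NK scramble against 929.5 and 943.1 FPKM in NK shADAR1. None of 4 B cell markers (0 of 4) and 1 of 5 myeloid markers, ITGAX, reached that level in every library. MS4A1 and FCN1, which mark B cells and monocytes, were listed at 0, and the part of any of these cells in the results was not tested.

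In the comparison of NK shADAR1 with NK scramble, which addresses what loss of ADAR1 does to gene expression in NK cells, the mitotic genes were on balance slightly higher in the knockdown, but no single gene passed the test. Of the 48 genes, 36 had a log2 fold change above 0 and 12 below, with a median of 0.10 against 0 over all tested genes and a range from -0.11 to 0.83. The largest log2 fold changes were those of MKI67, CENPF and TOP2A, and by role the highest median was that of the chromosome structure genes. Most genes of that role were also among the longest of the 48, and role and length were not told apart. The genes that switch mitosis on and off, among them CCNB1, CDK1, PLK1, AURKB and CDC20, had almost the same mean in both groups.

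By edgeR's quasi-likelihood test, 0 of the 48 genes were differentially expressed, that is with a Benjamini-Hochberg adjusted p under 0.05 at a fold change not below 1.5, as were 0% of all tested genes. Their adjusted p was 1.00 throughout. At an unadjusted p under 0.05 the test found 4 of the 48 genes, all higher in NK shADAR1, namely CENPF, MKI67, TOP2A and NCAPG, where the background was 1.7% of tested genes higher and 0.779% lower. DESeq2 likewise called 0 genes and found 4 of the 48 genes at an unadjusted p under 0.05, against 1.85% of all genes. In 14 of the 48 genes (29.2%) both NK shADAR1 libraries lay above both NK scramble libraries, against 13.3% of all tested genes. The opposite order was seen in 0 of the 48, against 12.6% of all tested genes. These counts rested on single libraries. Without NK scramble replicate 1, 9 of the 48 genes had an unadjusted p under 0.05, against 3.8% of all genes, and 2 of the 47 genes called over the whole table were among them, CENPF (adjusted p = 0.0381 by edgeR's quasi-likelihood test) and MKI67 (adjusted p = 0.0494), with the lone control library assumed to vary like the other group. Without NK scramble replicate 2 or without NK shADAR1 replicate 1, 0 of the 48 genes had an unadjusted p under 0.05, against 4.37% and 1.69% of all genes. With NK shADAR1 replicate 1 left out, 36 genes were apart with the knockdown higher and 1 with it lower (31% and 29.2% of all tested genes), and with NK shADAR1 replicate 2 left out 17 and 15 (34.1% and 33.3%). The same counts were 26 and 2 without NK scramble replicate 1 (30.2% and 29.9%) and 20 and 7 without NK scramble replicate 2 (32.5% and 31.9%). The median log2 fold change was 0.12 without NK scramble replicate 1, 0.09 without NK scramble replicate 2, 0.19 without NK shADAR1 replicate 1 and 0.02 without NK shADAR1 replicate 2. In bulk RNA, more cells in mitosis and more mitotic mRNA per cell cannot be told apart.

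**Figure D1:**
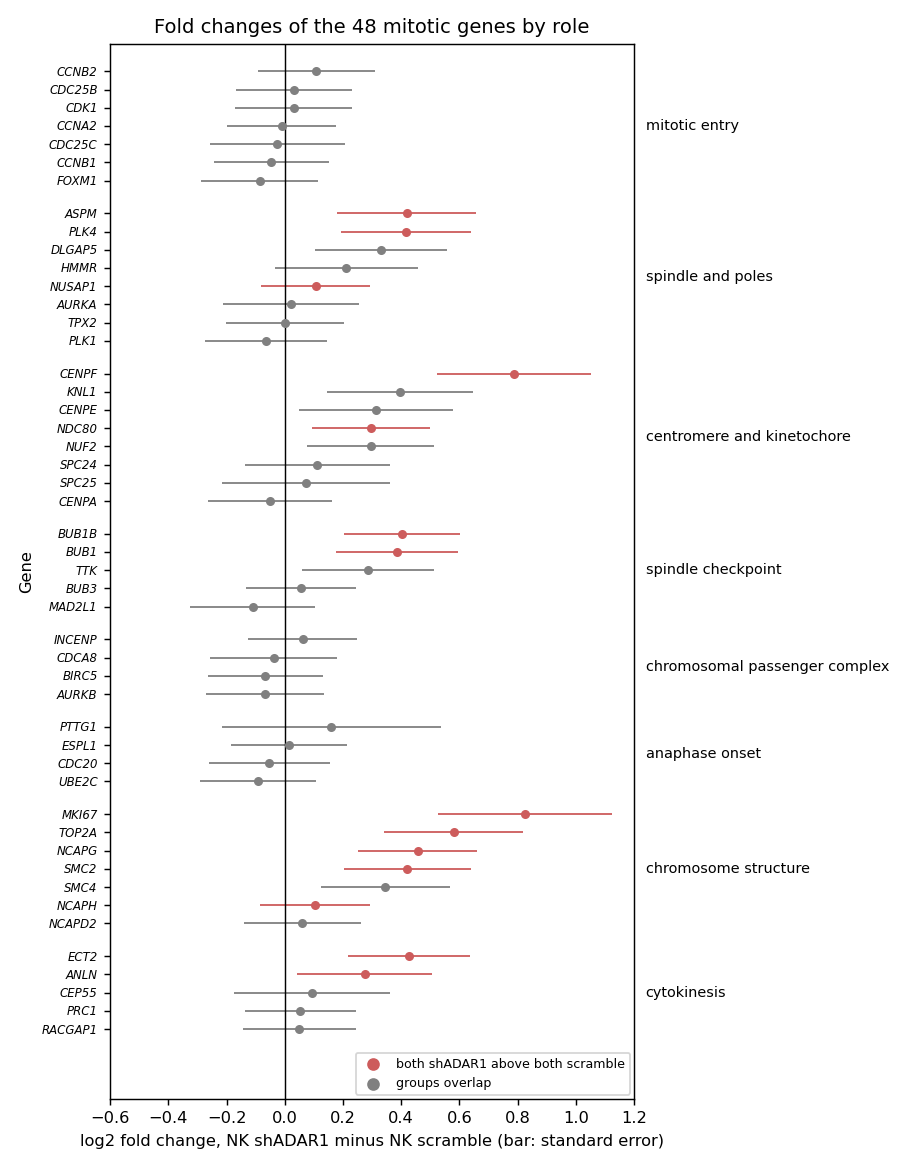
Log2 fold change of each of the 48 mitotic genes, NK shADAR1 minus NK scramble (x axis), by role (y axis). Points are edgeR estimates and bars their standard errors, and red marks the 14 genes in which both NK shADAR1 libraries lay above both NK scramble libraries. The genes of chromosome structure all lie right of 0, and those of mitotic entry lie about 0.

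The promoters of these genes were read in RefSeq windows (GRCh38.p14) from 250 bases before to 50 bases after the transcription start, and 39 of the 48 genes had one. Both strands were searched for the CHR core in its usual letters TTTGAA and in the form TTCGAA, and for CCAAT. The first or second hexamer stood in 32 of the 39 genes (82.1%), against 19.5% of 27305 genes with a window. Of the 39 genes, TTTGAA stood in 30 (76.9%, against 18.2%), TTCGAA in 3 (7.7%, against 1.8%) and CCAAT in 31 (79.5%, against 39.7%). CCAAT and a hexamer stood together in 24 of the 39 (61.5%), against 7.8% of all genes, and 21 (53.8%) held at least 2 CCAAT, against 12.9%. With only the bases before the start, the hexamers were in 24 of the 39 genes (61.5%), against 17.2%. The genes without a window were FOXM1, AURKA, TPX2, KNL1, BUB3, TTK, BIRC5, UBE2C and RACGAP1.

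Sequences are printed for the 3 genes of chromosome structure with the lowest p-values and for 3 regulators whose levels overlapped between the groups, so that the promoters of both kinds can be read side by side. Each runs 5′ to 3′ along the gene's strand over the 160 bases before its start, with the hexamers and CCAAT in capitals, where TTCAAA stands for TTTGAA and ATTGG for CCAAT on the other strand.
MKI67 (chr10:128126424-128126583, minus strand): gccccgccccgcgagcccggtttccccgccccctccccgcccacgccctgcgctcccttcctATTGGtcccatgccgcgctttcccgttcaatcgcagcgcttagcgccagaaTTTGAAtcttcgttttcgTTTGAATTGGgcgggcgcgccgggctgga
TOP2A (chr17:40417897-40418056, minus strand): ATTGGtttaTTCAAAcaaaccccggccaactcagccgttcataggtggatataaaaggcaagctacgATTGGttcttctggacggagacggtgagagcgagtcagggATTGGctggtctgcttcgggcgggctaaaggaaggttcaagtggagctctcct
NCAPG (chr4:17810819-17810978, plus strand): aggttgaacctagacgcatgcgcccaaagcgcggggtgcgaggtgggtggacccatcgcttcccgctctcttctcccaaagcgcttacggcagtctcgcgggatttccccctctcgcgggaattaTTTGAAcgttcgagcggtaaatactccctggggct
CCNB2 (chr15:59104986-59105145, plus strand): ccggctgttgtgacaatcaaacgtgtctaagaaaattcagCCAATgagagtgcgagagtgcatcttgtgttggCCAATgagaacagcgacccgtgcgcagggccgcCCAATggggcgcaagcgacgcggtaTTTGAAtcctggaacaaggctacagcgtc
PLK1 (chr16:23678729-23678888, plus strand): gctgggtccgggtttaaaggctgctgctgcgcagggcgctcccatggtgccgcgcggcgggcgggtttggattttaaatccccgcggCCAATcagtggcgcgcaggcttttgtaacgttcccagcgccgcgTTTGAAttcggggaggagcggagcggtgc
CDC20 (chr1:43358821-43358980, plus strand): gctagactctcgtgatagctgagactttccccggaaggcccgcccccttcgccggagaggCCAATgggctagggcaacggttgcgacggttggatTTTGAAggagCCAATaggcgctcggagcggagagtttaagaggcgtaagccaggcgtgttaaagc

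All 6 hold the hexamer. MKI67 holds 2, of which the one nearer the start shares 1 base with a CCAAT on the other strand, and the other 5 genes hold 1 each. CCAAT is found 2 times in MKI67, 3 times in TOP2A, 0 times in NCAPG, 3 times in CCNB2, 1 time in PLK1 and 2 times in CDC20. The 3 regulators were picked as examples, and not all promoters of either kind hold a hexamer. Neither hexamer stood in the window of NCAPH, whose groups did not overlap. The same held for CCNB1, CCNA2, AURKB, PTTG1, SPC24 and CENPE, whose groups did overlap. Over all genes with a window, the hexamers were in 13 of the 14 genes whose groups did not overlap (92.9%) and in 19 of the 25 whose groups did (76.0%), and CCAAT was in 9 of 14 (64.3%) and 22 of 25 (88.0%). These matches describe the letters only and are not shown to be bound sites. For comparison, the hexamers stood in 47 of 118 other mitotic genes (39.8%), in 10 of 12 mitotic kinesin genes (83.3%) and in 3 of 40 DNA replication genes (7.5%). CCAAT stood in 66 of 118 (55.9%), 10 of 12 (83.3%) and 25 of 40 (62.5%) of the same lists.

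The levels of the 48 genes, on the FPKM scale that divides by transcript length, ran from 4.15 FPKM for ANLN, a scaffold of the contractile ring, to 298 FPKM for PTTG1, which encodes securin (means of the 4 libraries). UBE2C, the ubiquitin-conjugating enzyme of the anaphase-promoting complex, was next at 277 FPKM, followed by its activator CDC20 at 165 FPKM. CENPE, a kinesin motor of the kinetochore, and KNL1, a kinetochore scaffold, were low at 7.40 and 11.3 FPKM. The kinase CDK1 stood at 58.1 FPKM, and its partners were at 116 FPKM for CCNB1, 87.4 FPKM for CCNB2 and 57.0 FPKM for CCNA2. The ubiquitin machinery of anaphase was thus far above the kinetochore scaffold in mRNA per length, and every one of the 48 genes was read with at least 537 counts in each library, so counting error was small beside the spread between replicates.

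The genes of mitotic entry lay about 0, with 3 of 7 above 0, 4 below and a median log2 fold change of -0.01. CCNB1, the cyclin that starts mitosis, was at 169 and 181 CPM in the NK scramble libraries and at 153 and 186 CPM in the NK shADAR1 libraries. Both the lowest and the highest value belonged to the knockdown, and the log2 fold change was -0.05 (SE 0.20, unadjusted p = 0.819). CDK1 itself had the same shape, at 106 and 111 CPM in the NK scramble libraries and 99.6 and 122 CPM in the NK shADAR1 libraries (log2 fold change 0.03, SE 0.20, unadjusted p = 0.883). The second B-type cyclin, CCNB2, read 120 and 132 CPM in the NK scramble libraries and 122 and 150 CPM in the NK shADAR1 libraries, which is the largest difference in this group at 0.11 on the log2 scale (SE 0.20, unadjusted p = 0.601). CDC25B, a phosphatase that frees CDK1 from inhibition and the most abundant of these genes by CPM, was at 258 and 209 CPM in the NK scramble libraries and 247 and 231 CPM in the NK shADAR1 libraries. The controls lay on either side of the knockdown libraries, and the log2 fold change was 0.03 (SE 0.20, unadjusted p = 0.878). The log2 fold changes of the other 3 genes were -0.01 for CCNA2, -0.03 for the phosphatase CDC25C and -0.09 for FOXM1, the transcription factor of this gene group, and all 3 overlapped between groups.

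Among 8 genes of the spindle and its poles, 7 lay above 0 with a median log2 fold change of 0.16. In 3 of the 8 (37.5%) the groups did not overlap, with the knockdown higher, against 13.3% of all tested genes. ASPM, which acts at the spindle poles, was at 201 and 126 CPM in the NK scramble libraries and at 228 and 210 CPM in the NK shADAR1 libraries. NK scramble replicate 2 was the low library, with a log2 fold change of 0.42 (SE 0.24, unadjusted p = 0.109) that became 0.12 without that library. PLK4, the kinase that duplicates centrioles, was at 38.1 and 31.0 CPM in the NK scramble libraries against 53.2 and 39.1 CPM in the NK shADAR1 libraries (log2 fold change 0.42, SE 0.22, unadjusted p = 0.0926). Here the lower knockdown library was barely above the higher control. NUSAP1, a microtubule-bundling protein, also kept the groups apart, at 206 and 192 CPM against 218 and 210 CPM, by a margin of only a few CPM.

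TPX2, which activates Aurora A on the spindle and was the most abundant of the spindle genes by CPM, had the least difference of all 48 genes. It was at 396 and 436 CPM in the NK scramble libraries and 381 and 452 CPM in the NK shADAR1 libraries, with both knockdown values outside the range of the controls on opposite sides (log2 fold change 0.00, SE 0.20, unadjusted p = 0.996). PLK1, the Polo kinase of mitotic entry and spindle assembly, was at 146 and 120 CPM in the NK scramble libraries and 114 and 140 CPM in the NK shADAR1 libraries (log2 fold change -0.07, SE 0.21, unadjusted p = 0.760). Its values overlapped fully. The remaining members of this group were AURKA, the Aurora A kinase, at a log2 fold change of 0.02, the hyaluronan receptor and spindle protein HMMR at 0.21 and DLGAP5, which stabilises kinetochore fibres, at 0.33. In all 3 the groups overlapped, and NK shADAR1 replicate 2 was the highest library.

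At the centromere and kinetochore, 7 of 8 genes lay above 0 and the median log2 fold change was 0.30. CENPF, a large protein of the outer kinetochore, was at 256 and 150 CPM in the NK scramble libraries and at 390 and 311 CPM in the NK shADAR1 libraries, so the groups did not overlap. The means were 203 ± 75.2 CPM and 351 ± 55.8 CPM (SD, n = 2 libraries each), a fold change of 1.73 (log2 fold change 0.79, SE 0.26, unadjusted p = 0.0134), the lowest p of the 48 genes. The log2 fold change ranged from 0.45 without NK scramble replicate 2 to 1.22 without NK scramble replicate 1. NDC80, which binds microtubules at the kinetochore, also kept the groups apart, at 34.5 and 28.8 CPM in the NK scramble libraries and 36.9 and 40.8 CPM in the NK shADAR1 libraries (log2 fold change 0.30). Its partner NUF2 had the same log2 fold change of 0.30 with 85.6 and 63.8 CPM in the NK scramble libraries and 84.7 and 98.7 CPM in the NK shADAR1 libraries, where 1 knockdown library was below a control.

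The other 2 subunits of the NDC80 complex, SPC24 and SPC25, had smaller log2 fold changes of 0.11 and 0.07. SPC25 was at 19.5 and 33.0 CPM in the NK scramble libraries and 22.0 and 33.2 CPM in the NK shADAR1 libraries, so both replicates 2 were above both replicates 1. SPC24 was likewise higher in replicate 2 of both groups, at 39.8 and 58.4 CPM in the NK scramble libraries and 44.1 and 62.0 CPM in the NK shADAR1 libraries. KNL1 was at 86.5 and 53.7 CPM in the NK scramble libraries and 101 and 83.9 CPM in the NK shADAR1 libraries (log2 fold change 0.40), and CENPE at 72.0 and 41.4 CPM against 64.6 and 76.4 CPM (log2 fold change 0.31). In both, NK scramble replicate 2 was the only low library. CENPA, the centromeric histone, was the one gene of this group below 0, at -0.05.

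Of 5 spindle checkpoint genes 4 lay above 0, with a median log2 fold change of 0.29. In 2 (40%) the groups did not overlap, with the knockdown higher, against 13.3% of all tested genes. BUB1, the kinase that recruits the checkpoint to kinetochores, was at 234 and 238 CPM in the NK scramble libraries and at 354 and 262 CPM in the NK shADAR1 libraries. The controls were nearly equal and both knockdown libraries were above them, with a log2 fold change of 0.39 (SE 0.21, unadjusted p = 0.0971) that became 0.15 without NK shADAR1 replicate 1. BUB1B, which encodes the checkpoint effector BUBR1, also had both knockdown libraries above the controls and NK shADAR1 replicate 1 highest, at 142 and 132 CPM against 199 and 163 CPM (log2 fold change 0.40, SE 0.20, unadjusted p = 0.0685), and was 0.25 without NK shADAR1 replicate 1. TTK, the kinase MPS1, was at 68.8 and 49.1 CPM in the NK scramble libraries and 65.4 and 78.3 CPM in the NK shADAR1 libraries (log2 fold change 0.29), with overlapping groups. The remaining genes were closer to 0. BUB3 had a log2 fold change of 0.05 and MAD2L1, which encodes MAD2, one of -0.11, the lowest of the 48 genes.

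The chromosomal passenger complex, which corrects faulty attachments, had 1 of its 4 genes above 0 and 3 below, with a median log2 fold change of -0.05. Its kinase AURKB was at 86.6 and 89.4 CPM in the NK scramble libraries and 74.9 and 93.0 CPM in the NK shADAR1 libraries (log2 fold change -0.07, SE 0.20, unadjusted p = 0.745). CDCA8, the borealin subunit and the most abundant of the 4 by CPM, was at 233 and 227 CPM against 183 and 264 CPM (log2 fold change -0.04, SE 0.22, unadjusted p = 0.863). In both genes the lowest and the highest library were the knockdown replicates 1 and 2. BIRC5, which encodes survivin, was at -0.07 and the scaffold INCENP at 0.06, both with overlapping groups.

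The genes of anaphase onset also lay about 0, with 2 of 4 above 0 and a median log2 fold change of -0.02. CDC20 was at 309 and 251 CPM in the NK scramble libraries and 245 and 294 CPM in the NK shADAR1 libraries (log2 fold change -0.05, SE 0.21, unadjusted p = 0.800). PTTG1 had the largest log2 difference between the NK shADAR1 replicates of the 48 genes. It was at 147 and 265 CPM in the NK scramble libraries and 137 and 323 CPM in the NK shADAR1 libraries, so both replicates 2 were far above both replicates 1. Its group means of 206 ± 83.1 and 230 ± 132 CPM (SD, n = 2 each) gave a log2 fold change of 0.16 (SE 0.38, unadjusted p = 0.680), which was -0.59 without NK shADAR1 replicate 2 and 0.65 without NK shADAR1 replicate 1. ESPL1, the separase that PTTG1 holds back, had a log2 fold change of 0.02 and UBE2C one of -0.09, with overlapping groups.

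All 7 genes of chromosome structure lay above 0, with a median log2 fold change of 0.42. In 5 (71.4%) the groups did not overlap, with the knockdown higher, against 13.3% of all tested genes. MKI67, which encodes Ki-67, the coat protein of mitotic chromosomes used to count dividing cells, was at 389 and 240 CPM in the NK scramble libraries and at 699 and 415 CPM in the NK shADAR1 libraries. The lower knockdown library was only slightly above the higher control, while the other stood far above the rest. The means were 314 ± 105 and 557 ± 201 CPM (SD, n = 2 each), a fold change of 1.77 (log2 fold change 0.83, SE 0.30, unadjusted p = 0.0192), the largest of the 48 genes. The log2 fold change was 0.40 without NK shADAR1 replicate 1, 0.51 without NK scramble replicate 2 and 1.21 without NK scramble replicate 1. TOP2A, the topoisomerase II of dividing cells, was at 573 and 381 CPM in the NK scramble libraries and 761 and 665 CPM in the NK shADAR1 libraries (log2 fold change 0.58, SE 0.24, unadjusted p = 0.0352). It was the most abundant of the 48 genes by CPM, and its log2 fold change was 0.31 without NK scramble replicate 2 and 0.90 without NK scramble replicate 1.

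**Figure D2:**
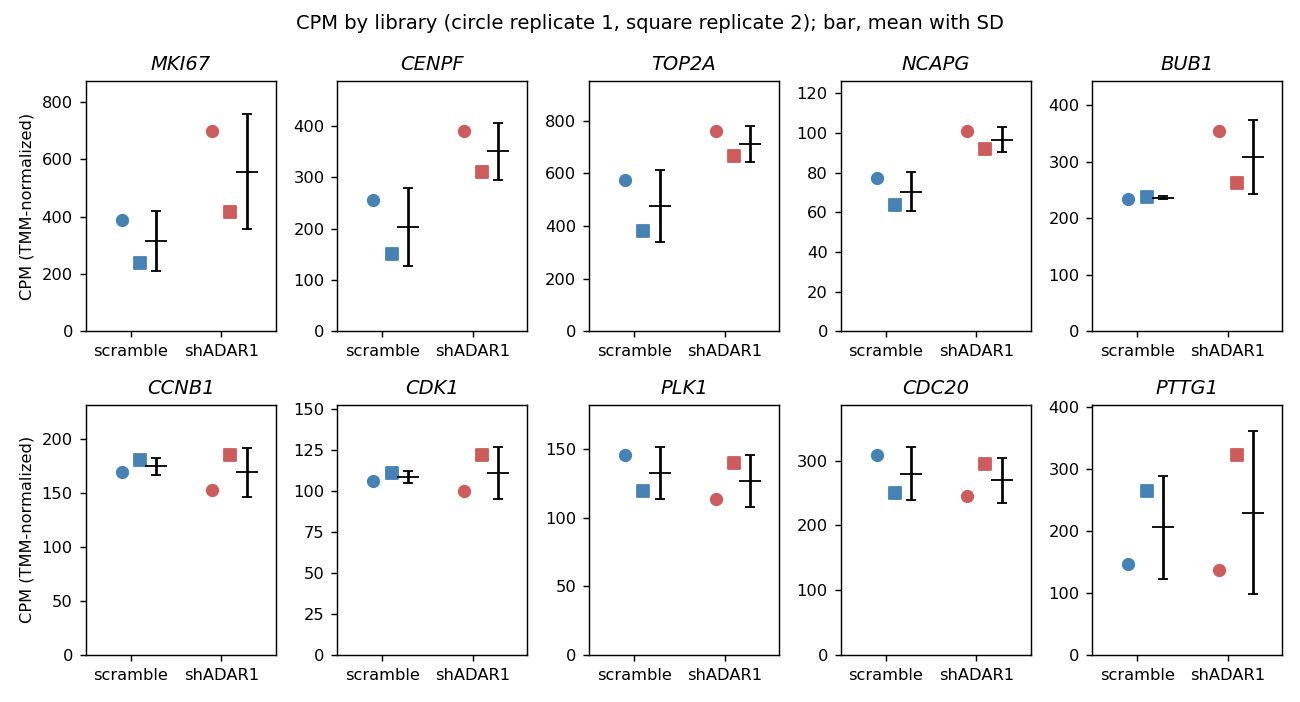
CPM after TMM scaling (y axis, from 0) of 10 mitotic genes in NK scramble (blue) and NK shADAR1 (red), with circles for replicate 1, squares for replicate 2 and bars for the mean with SD (n = 2). In the upper row both NK shADAR1 libraries lie above both NK scramble libraries, and in the lower row the groups overlap, with PTTG1 following the replicate number.

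The condensin I subunits had log2 fold changes from 0.06 to 0.46. NCAPG was at 77.3 and 63.5 CPM in the NK scramble libraries and at 101 and 92.1 CPM in the NK shADAR1 libraries (log2 fold change 0.46, SE 0.20, unadjusted p = 0.0480), and the groups did not overlap. SMC2, one of the ATPases that condensin is built on, was at 110 and 77.8 CPM against 128 and 124 CPM (log2 fold change 0.42, SE 0.22, unadjusted p = 0.0829), again with the groups apart. The other ATPase, SMC4, read 348 and 267 CPM against 437 and 344 CPM (log2 fold change 0.35), where 1 knockdown library was just below a control. NCAPH and NCAPD2, the other subunits, had log2 fold changes of 0.10 and 0.06. The sources used here do not state that reads were counted by strand, and 14 of the 48 genes share exonic bases with another listed gene in GENCODE release 29. NCAPG shares 33.1% of its exonic bases with LCORL on the opposite strand, which was at 18.5 and 12.4 CPM in the NK scramble libraries and 17.5 and 18.1 CPM in the NK shADAR1 libraries. SMC4 shares 18.5% with TRIM59, and NUSAP1 shares 62.2% and PRC1 57.6% with readthrough genes on their own strand, so the counts of these genes are less certain.

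Of the 5 genes of cytokinesis all lay above 0, with a median log2 fold change of 0.09. ECT2, the exchange factor that turns on RhoA at the division plane, was at 128 and 98.5 CPM in the NK scramble libraries and at 160 and 145 CPM in the NK shADAR1 libraries (log2 fold change 0.43, SE 0.21, unadjusted p = 0.0666). The groups did not overlap, and the value was 0.24 without NK scramble replicate 2. ANLN also kept them apart at its low level, with 19.3 and 13.7 CPM against 20.0 and 19.8 CPM (log2 fold change 0.27). PRC1, the microtubule cross-linker of the spindle midzone and the most abundant of the 5 by CPM, was at 137 and 149 CPM in the NK scramble libraries and 140 and 157 CPM in the NK shADAR1 libraries (log2 fold change 0.05, SE 0.19, unadjusted p = 0.785). RACGAP1, the partner of ECT2 at the midzone, was at 0.05 and CEP55, an abscission protein, at 0.09, both with overlapping groups.

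**Figure D3:**
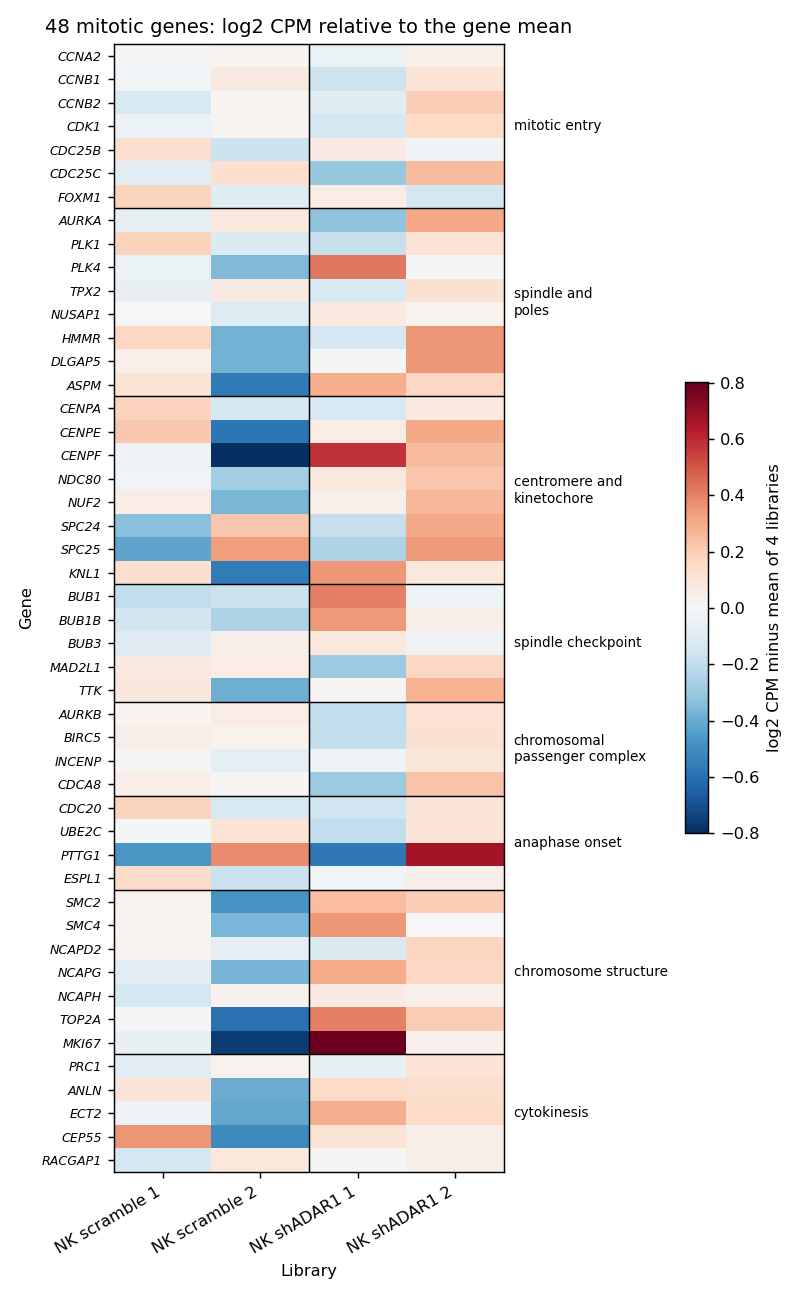
Log2 CPM of each of the 48 mitotic genes (rows, by role) in the 4 libraries (columns), relative to the gene's mean over the 4 libraries. NK scramble replicate 2 is blue (below the mean) for MKI67, CENPF, TOP2A, ASPM, KNL1 and CENPE, and PTTG1 and SPC25 are red in both replicates 2.

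Libraries of the same group also differed from each other. Measured as the median over the 48 genes of log2 CPM minus the gene's mean over the 4 libraries, NK scramble replicates 1 and 2 were at -0.01 and -0.12 and NK shADAR1 replicates 1 and 2 at 0.00 and 0.12. NK scramble replicate 2 was the lowest library for 24 of the 48 genes (50.0%, against 23.9% of all tested genes) and NK shADAR1 replicate 2 the highest for 23 (47.9%, against 21.9%). NK shADAR1 replicate 1 was the highest for 16 and the lowest for 15. The median absolute difference between replicates was 0.29 on the log2 scale in NK scramble and 0.26 in NK shADAR1, while the median absolute difference between the group means was 0.10. Over all tested genes the same 3 values were 0.26, 0.26 and 0.14. For a typical gene of the 48, the difference between group means was smaller than that between single replicates. A mean of 2 libraries varies less than a single library, so these measures are not alike.

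Pairs of libraries gave different answers. NK shADAR1 replicate 1 exceeded NK scramble replicate 1 in 22 of the 48 genes, with a median log2 difference of -0.04, and NK scramble replicate 2 in 28 (0.09). NK shADAR1 replicate 2 exceeded NK scramble replicate 1 in 39 genes (0.15) and NK scramble replicate 2 in 44 (0.22). Within NK scramble, 17 of the 48 genes were higher in replicate 2 than in replicate 1, with a median log2 difference of -0.18. Within NK shADAR1, 29 of the 48 were higher in replicate 2, with a median of 0.16.

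Among the 48 genes, the difference between groups went with transcript length. The length behind the FPKM was worked out from each gene's count and FPKM and ran from 726 bases for PTTG1 to 11645 for MKI67. Across the 48 genes the log2 fold change correlated with log2 length at Pearson's r = 0.692 and Spearman's rho = 0.605, against 0.053 and 0.096 over all 11695 tested genes with a length. The 12 longest genes, of 3968 bases and more, had a median log2 fold change of 0.41, with all 12 above 0. The 12 shortest, of up to 1811 bases, had one of 0.00, with 6 above and 6 below, and the 24 between had 0.08. Among the 12 longest were MKI67, TOP2A, SMC2, SMC4, NCAPG and NCAPD2, all of chromosome structure. The longest gene of mitotic entry, FOXM1, had 3180 bases. Role and length thus went together, and which of them the fold changes follow was not tested. With transcript lengths from GENCODE instead, r was 0.615 over the 48 genes and 0.08 over all tested genes. On those lengths it was 0.595 over 12 mitotic kinesins, 0.481 over 133 other mitotic genes and 0.256 over 46 DNA replication genes. The relation with length was thus not particular to the 48 genes. Genes share libraries and are not independent replicates, so these correlations are descriptions.

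Length went with the differences between replicates too. Within NK scramble, replicate 2 minus replicate 1 correlated with log2 length at r = -0.739 over the 48 genes, and within NK shADAR1 at r = -0.667, against -0.065 and -0.193 over all tested genes. The 12 longest genes were lower by a median of -0.55 on the log2 scale in NK scramble replicate 2 than in replicate 1 and by -0.13 in NK shADAR1, while the 12 shortest differed by 0.15 and 0.31. Between groups, r was 0.508 for NK shADAR1 replicate 1 minus NK scramble replicate 1 and -0.36 for NK shADAR1 replicate 2 minus NK scramble replicate 1. It was 0.827 and 0.665 when the same libraries were set against NK scramble replicate 2. Without NK scramble replicate 2 the correlation of the fold change with length was 0.115, and without NK shADAR1 replicate 1 it was 0.274. When length was regressed out of each library across all tested genes, r was 0.620 and the median log2 fold change 0.09, with MKI67 at 0.64 and CENPF at 0.64. This correction removes only the trend fitted over all tested genes, where r was 0.053. It could therefore remove little of the steeper relation within the 48, and does not show what they would be without it. The fold change also correlated with GC content, at r = -0.531 across the 48 genes against -0.084 over all tested genes. This too was seen in other lists, at r = -0.764 over the mitotic kinesins, -0.386 over the other mitotic genes and -0.327 over the DNA replication genes. In a separate correction, length and GC content of GENCODE transcripts were regressed out together. The correlation with the length behind the FPKM over the 48 genes was then 0.634 and their median log2 fold change 0.09.

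The other genes of mitosis, 134 in 8 lists, gave a weaker shift. Of 133 tested, 82 lay above 0 and 51 below, with a median log2 fold change of 0.05. Both knockdown libraries lay above both controls in 26 (19.5%) and below them in 14 (10.5%). Over all tested genes these shares were 13.3% and 12.6%. By edgeR's quasi-likelihood test 0 were called at an adjusted p under 0.05, as were 0% of all tested genes. At an unadjusted p under 0.05 there were 5 of the 133, all higher in NK shADAR1, against 1.7% of all tested genes higher and 0.779% lower. They were CENPC of the inner kinetochore (log2 fold change 0.52, SE 0.22), the checkpoint protein KNTC1 (0.50, SE 0.20), the cohesin factors PDS5B (0.56, SE 0.25) and NIPBL (0.61, SE 0.27), and the microtubule polymerase CKAP5 (0.56, SE 0.23). NIPBL was at 51.6 and 33.1 CPM in the NK scramble libraries and 78.2 and 51.0 CPM in the NK shADAR1 libraries, so its groups overlapped.

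By list, the median log2 fold change was 0.17 over 16 cohesin genes, 0.15 over 31 other spindle and centrosome genes, 0.09 over 11 other cytokinesis genes, 0.06 over 17 other genes of the anaphase-promoting complex, 0.03 over 3 condensin II genes and 0.00 over 32 other kinetochore genes. It was -0.02 over 12 genes of MuvB and its partners. The 11 other genes of mitotic entry and exit stood lower, with 9 of 11 below 0 and a median of -0.14. Among these WEE1, the kinase that holds CDK1 inactive, was at 64.9 and 61.1 CPM in the NK scramble libraries and 57.1 and 57.0 CPM in the NK shADAR1 libraries. CDC25A, which opposes it, was at 89.1 and 86.9 CPM against 58.3 and 84.9 CPM. Both had the knockdown libraries below the controls, at log2 fold changes of -0.14 and -0.30, and neither passed the test. WEE1 and CDC25A were chosen for mention after their values were seen.

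The 12 mitotic kinesins that were left out of the choice of the 48 genes had 9 above 0 and a median log2 fold change of 0.23. In 2 (16.7%) the groups were apart with the knockdown higher, close to the 13.3% of all tested genes. KIF15, a spindle motor, was the one with an unadjusted p under 0.05, at 38.9 and 26.3 CPM in the NK scramble libraries and 50.1 and 47.4 CPM in the NK shADAR1 libraries (log2 fold change 0.58, SE 0.23). Genes of DNA replication, which act in the S phase before mitosis, lay on the other side of 0. Of 46, 17 were above and 29 below, with a median of -0.04 and 0 at an unadjusted p under 0.05. The groups were apart in 1 (2.17%) with the knockdown higher and in 7 (15.2%) with it lower. Over all tested genes these shares were 13.3% and 12.6%. The 7 tested Cdk inhibitors and pocket proteins, which restrain the cell cycle, had a median of -0.03. The difference between these lists and the 48 genes was not tested.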

How the data were processed

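Oligo(dT)-selected RNA of NK-92 cells was sequenced in 4 libraries. The authors deposited estimated counts per gene, not normalized, of which 12.4% were not whole, and FPKM values, scaled by transcript length and depth. The submitters' processing notes name fastp 0.18.0. The aligner, the counting program and the genome build are not given in the sources used here. Symbols were matched for 20301 of 20323 Ensembl identifiers.

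Counts were rounded. Low genes were removed by edgeR 4.0.16 (filterByExpr, minimum count 10, R 4.3.3), libraries were scaled by TMM, and the quasi-likelihood test of edgeR was run without covariates on 11810 genes, with Benjamini-Hochberg adjustment over all of them. A gene was called differentially expressed at an adjusted p under 0.05 with a change of 1.5-fold or more. The standard error is the log2 fold change divided by the square root of the F statistic. CPM use TMM-scaled library sizes, and levels within libraries use log2 CPM with a prior count of 2. The FPKM were used only to compare levels between genes, for the transcript length (count against FPKM, at least 0.1 FPKM and 10 counts) and for 1 alternative.

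Genes were named with full statistics by a rule: in each role the most abundant by CPM and the one with the largest absolute log2 fold change, every gene with an unadjusted p under 0.05, and MKI67, TOP2A, CCNB1, CDK1 and PLK1. In the other lists, genes with an unadjusted p under 0.05 were named. The members and lists were chosen with earlier results of these data known, so no list was tested as a set.

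The alternatives were upper quartile and RLE scaling, DESeq2 1.42.0, other count filters, calls without a fold limit, a block for the replicate number, transcript length regressed out (splines of 4 degrees of freedom), limma 3.58.1 on log2(FPKM + 0.5) and each library left out. Regressing out length and GC content of GENCODE release 29 together was added after the data were seen. Promoters are RefSeq windows of 300 bases (GRCh38.p14). The depth makes counting error small for these genes, so precision is set by 2 libraries per group. An exact permutation test could not give a two-sided p below 0.333 and was not used. The scripts were tested on simulated data.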

Additional observations from a re-analysis of the deposited data

How the results depend on the processing

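The 48 mitotic genes held 0 differentially expressed genes under all alternatives that kept the 4 libraries, and their median log2 fold change stayed between 0.09 and 0.11. Leaving out 1 library gave 0 to 2 called genes of the 48, 0 to 9 at an unadjusted p under 0.05 (all genes 1.69% to 5.69%), a median of 0.0184 to 0.189, 17 to 36 genes apart with the knockdown higher (all genes 30.2% to 34.1%) and 1 to 15 with it lower (29.2% to 33.3%), and a correlation with length of 0.115 to 0.807. With 1 library left in a group, more genes are apart by construction. Over all genes it gave 1 to 47 calls, where all 4 libraries gave 0. ADAR ranged from -0.47 to -0.22, other mitotic genes from 0.0055 to 0.112, DNA replication from -0.152 to 0.0227, mitotic kinesins from 0.12 to 0.28 and Cdk inhibitors from -0.07 to 7e-04. The replicate numbers are shared by the groups, and same-numbered libraries deviated together (r = 0.308 over all genes, 0.589 over the 48), but with 2 pairs this is only a hint. With the replicate number as a block, 13 genes were called, 0 of them mitotic, and 12 of the 48 had an unadjusted p under 0.05, against 5.77% of all genes. With length and GC content regressed out, chosen after seeing the data, 2 of the 48 did, against 2.82%. The number apart with the knockdown lower was 1 with length regressed out (all genes 14.5%), 3 with length and GC content (17.3%) and 1 on FPKM (11.6%). The median of the other mitotic genes was 0.0592 under upper quartile scaling, 0.031 with length, 0.0286 with length and GC content and 0.065 on FPKM. The hexamers were in 61.5% of promoters when only bases before the start counted. TPX2 turned to -0.0033 with every gene of at least 1 count, -0.0027 under the block, -0.0249 with length and -0.0039 in DESeq2, and with length and GC content CDK1 turned to -0.0184 and CDCA8 to 0.0031. With a library left out, the sign turned in 11 of the 19 named genes, between these values: CCNB1 -0.19 and 0.0871, CCNB2 -0.0502 and 0.25, CDK1 -0.13 and 0.17, CDC25B -0.12 and 0.19, PLK1 -0.23 and 0.0835, TPX2 -0.13 and 0.12, AURKB -0.23 and 0.0814, CDCA8 -0.33 and 0.20, CDC20 -0.20 and 0.10, PTTG1 -0.59 and 0.65, PRC1 -0.0352 and 0.14. It held in MKI67, CENPF, TOP2A, NCAPG, ASPM, BUB1, BUB1B and ECT2. The causes were not tested.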
